A study of Canis lupus familiaris with 7 samples.

Results

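Chromosome 21 of the dog carries DLG2, the gene whose deletion status divided the tumours of this study. The members described here were all the probes that the array places on chromosome 21 of the canFam2 build, 874 of 43603 non-control probes. Of these, 586 were kept because the scanner software marked them well above background on at least 3 arrays, 474 were above background on all 7 arrays and 173 on 0 arrays. The stretch from 14 to 22 Mb around DLG2 held 66 probes, of which 51 were kept, and the other 535 kept probes formed the rest of the chromosome. Members were thus selected on measured signal (the background filter), the profile is the deviation of each probe from its median over the 7 tumours, and the stretch was chosen with earlier results of these tumours known. The profile is therefore given as a description, and no test between the groups was made of the stretch or of a window. The kept probes ran from position 3551257 to position 53912088, and 344 of them had a gene symbol, which gave 220 genes.

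Total RNA from 7 primary osteosarcomas of pet dogs, a malignant bone tumour, was hybridised to Agilent canine expression arrays with 1 dye and 1 array per tumour. Of these, 4 tumours carried a DLG2 deletion and 3 were DLG2 wild type, as the labels state it. The deleted tumours came from dogs of 8, 9, 6 and 7 years and the wild-type tumours from dogs of 12, 10 and 8 years, in the order of their numbers here. The sex label was MC in deleted tumours 1 and 3 and wild-type tumour 3, and FS in the others. Each group held dogs of several breeds, and the genotype labels do not say whether 1 or both copies were lost or how far each deletion reached. The numbers only name a tumour and pair nothing.

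DLG2 belongs to the membrane-associated guanylate kinases, scaffolds that hold receptors and signalling proteins together under the cell membrane. It is best known at synapses of the brain, and proteins of this kind also bear on cell polarity and growth control. A deletion removes DNA, so a gene inside it can give less RNA, while the genes on either side keep their copies unless the loss reaches them. In tumour tissue the RNA comes from tumour cells and from the other cells of the sample together, and fewer cells of a type and less RNA per cell cannot be told apart. In the gene order of the RefSeq assembly UU_Cfam_GSD_1.0, TMEM126A comes just before DLG2, with PICALM, EED, HIKESHI, ME3 and PRSS23 further out on that side, and TMEM126B, CCDC90B, ANKRD42, PCF11, RAB30, DDIAS and PRCP come after it. By the canFam2 positions of the array TMEM126B lies before DLG2 too, beside TMEM126A.

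The array reads each gene through strands of 60 bases, and the sequences below are those probes for the members on which the description turns. Each has at least 1 forward reading frame without a stop codon, as had 40 of the 51 kept probes of the stretch (78.4%) and 85.3% of all kept probes. The only probe under the DLG2 symbol, A_11_P068516 at chr21:18338004-18338063 on the plus strand, the probe the file describes as discs, large homolog 2, A_11_P0000029161 at chr21:18773733-18773792 on the plus strand, and the 1 kept probe whose position falls in the interval given for the focal deletion, A_11_P068511 at chr21:17779710-17779769 on the plus strand, are shown first because they lie in or near the region whose loss defines the groups. The genome build of that interval is not given in the sources used here, so the last of these was placed by its position alone.
DLG2: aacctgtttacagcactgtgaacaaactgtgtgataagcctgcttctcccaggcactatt
DLG2-described probe: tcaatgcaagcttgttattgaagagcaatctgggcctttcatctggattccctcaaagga
Deletion interval probe: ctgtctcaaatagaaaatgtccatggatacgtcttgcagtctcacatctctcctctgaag

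The next 3 probes read genes of the 2 runs at lower canFam2 positions than DLG2 that are described further on. PICALM is read by A_11_P195198 on the plus strand at chr21:16477656-16485033, a span longer than the probe, so that its bases come from parts of the genome that lie apart. TMEM126B is read on the minus strand at chr21:16812496-16812555, and PRSS23 by A_11_P156773 on the minus strand at chr21:15793561-15793620.
PICALM: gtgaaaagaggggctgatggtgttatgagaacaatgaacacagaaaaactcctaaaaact
TMEM126B: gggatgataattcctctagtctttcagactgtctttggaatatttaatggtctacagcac
PRSS23: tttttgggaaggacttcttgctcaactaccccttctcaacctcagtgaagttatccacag

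The 2 RAB38 probes, at chr21:14821370-14821429 and chr21:14821389-14821448 on the plus strand, are shown because they are not independent readings: the 41 bases in capitals stand in both.
RAB38, first probe: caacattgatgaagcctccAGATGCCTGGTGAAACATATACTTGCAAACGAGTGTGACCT
RAB38, second probe: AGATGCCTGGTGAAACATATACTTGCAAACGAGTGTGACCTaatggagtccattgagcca
The second PRCP probe and the unnamed probe TC57444 likewise share 56 of their 60 bases, and their values followed each other from tumour to tumour.

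Between 30409 and 34692 spots were well above background per array, and 0 were saturated. Wild-type tumours 1 and 2 were the most alike pair of arrays, with r = 0.987 over the kept probes against 0.936 to 0.966 in the other pairs, and over the chromosome 21 probes r was 0.981. By the labels they are separate dogs. The run beside DLG2, where they are low, is also given without wild-type tumour 1 and with the pair counted as 1. The arrays lay on 5 slides, and slide 2 held deleted tumours 2 and 3 and wild-type tumour 2. Of the listed osteoblast markers 4 of 8 had kept probes, COL1A1, ALPL, BGLAP and RUNX2, with log2 intensities between 7.92 and 16.55, and the list stood lowest in deleted tumour 2 at -1.52 and highest in wild-type tumour 3 at 0.92. The 5 adipocyte markers stood 3.65 above their medians in deleted tumour 4, while the other tumours lay between -0.09 and 0.17. The 3 leukocyte markers (PTPRC, CD3E and CD79A) deviated by between -0.29 and 0.03 except in deleted tumour 3, at 0.70. The muscle list held 1 kept gene of 4, with ACTA1 between 11.44 and 13.42, the osteoclast list 3 of 4, from -1.04 in deleted tumour 1 to 1.68 in wild-type tumour 3, and the cartilage list 3 of 4, from -0.50 in wild-type tumour 2 to 0.99 in deleted tumour 2. Of the erythroid markers 0 had a kept probe. The part of these cell types in the values of chromosome 21 was not tested.

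Along the whole chromosome, more probes had a higher than a lower mean in the deleted tumours. Of the 586 kept probes 401 were higher (68.4%), against 51.1% of all 32309 kept probes, and the median difference was 0.08 on the log2 scale against 0.01 over all probes. By limma, 54 of the 586 were higher at an unadjusted p below 0.05 (9.22%), where the share over all kept probes was 3.12%. Another 10 were lower (1.71%), where the share over all kept probes was 4.17%. After adjustment 0 were called, as over the whole array (0.0%). Scaling each array by its 75th percentile in place of quantile normalization gave 27 higher and 1 lower. Over all kept probes that scaling gave 628 higher and 460 lower, and it moved their median difference to 0.32. All deleted tumours stood above all wild-type tumours at 65 of 585 probes measured on every array (11.1%, over all kept probes 3.93%), and below them at 12 (2.05%, over all kept probes 4.23%).

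This tilt was also found on other chromosomes. Over the 39 chromosomes with at least 50 kept probes, the share of probes higher in the deleted tumours ran from 25% on chromosome 28 to 73.9% on chromosome 35. Chromosome 21 followed chromosomes 35 and 18 in this order and stood next to chromosome X at 68.2%. No test of one chromosome against another was made.

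**Figure D1:**
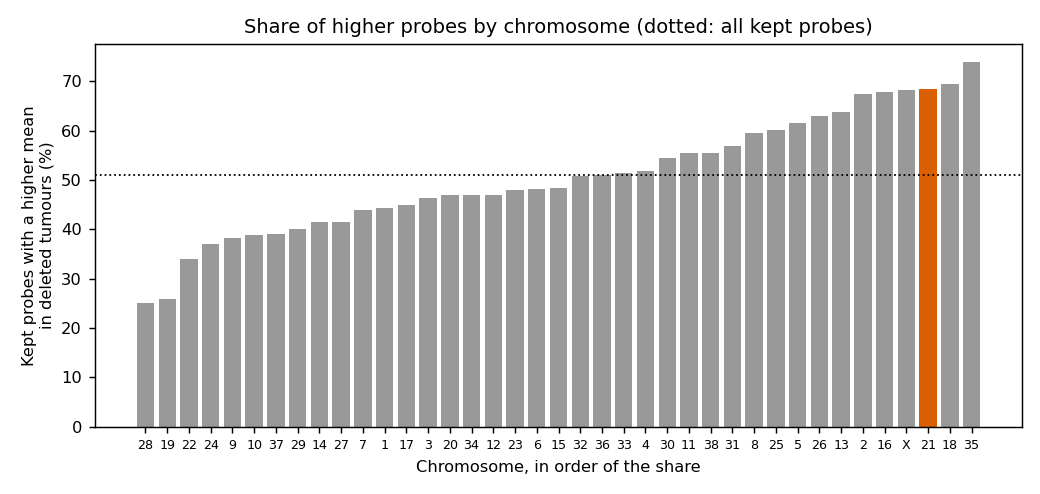
The bars give, for each of 39 chromosomes, the share of kept probes (percent, from 0) whose mean log2 intensity was higher in the 4 deleted than in the 3 wild-type tumours. Chromosome 21 (orange) stands at 68.4%, below chromosomes 35 and 18, and the dotted line marks the 51.1% of all kept probes.

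In windows of 5 Mb, the difference between the group means of the window medians lay between -0.02 and 0.23. The widest was at 15 to 20 Mb, the window that holds DLG2, where 46 probes gave a median deviation of 0.00, 0.20, 0.14 and 0.00 for the deleted tumours in order and of -0.40, 0.00 and -0.04 for the wild-type tumours. Wild-type tumour 1 alone stood far below the others there, and the groups overlapped at 0. A difference of like size at 0 to 5 Mb rested on 8 probes. Of the 10 windows with at least 10 kept probes, 1 kept the groups apart, at 40 to 45 Mb, where the deleted tumours stood at 0.00, 0.04, 0.12 and 0.00 and the wild-type tumours at -0.06, -0.07 and -0.01. Over 476 such windows of all chromosomes, the deleted tumours stood above in 1.47% and below in 2.1%, and the difference ran from -0.30 to 0.46. Of these 476 windows 7 lay at least as far from 0 as that at 15 to 20 Mb.

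The window at 35 to 40 Mb had the largest share of higher probes, 69 of 77 (89.6%). Deleted tumours 2 and 3, both on slide 2, had medians of 0.23 and 0.21 there, and the other 5 tumours lay between -0.08 and 0.00. Wild-type tumour 2, on the same slide, stood at 0.00. The part of the slide was not tested. The window at 30 to 35 Mb, which holds the beta-globin genes, was the one where fewer probes were higher than lower, 41 of 94 (43.6%).

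**Figure D2:**
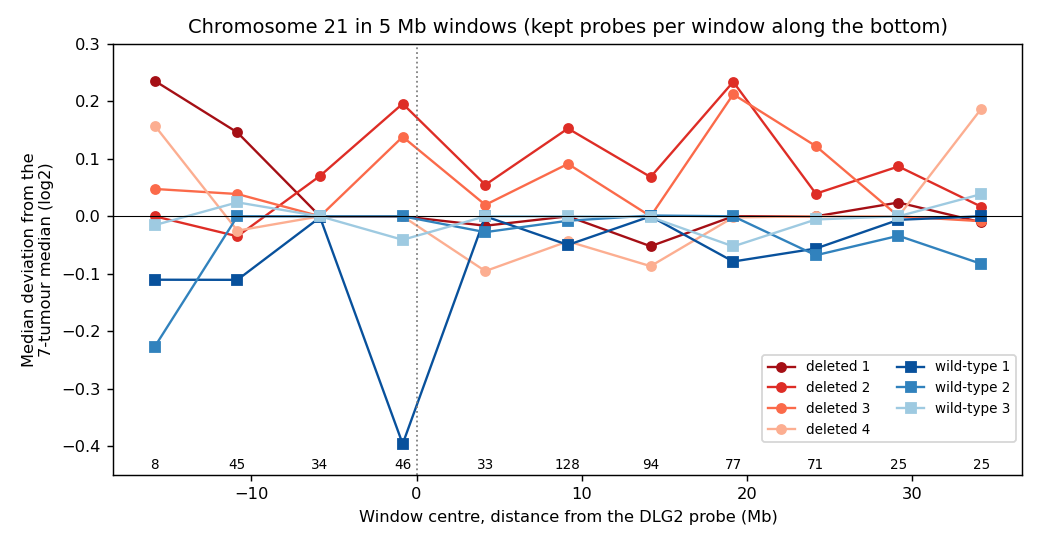
Each line is 1 tumour (red circles deleted, blue squares wild type) and each point the median deviation (log2) of the kept probes of a 5 Mb window from their 7-tumour medians, against the distance of the window centre from the DLG2 probe in Mb. Wild-type tumour 1 falls to -0.40 in the window of DLG2, and deleted tumours 2 and 3 run above the others over much of the chromosome.

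The stretch of 14 to 22 Mb was compared with the rest in each tumour. The median deviation of its 51 probes came to 0.00, 0.21, 0.20 and -0.01 for deleted tumours 1 to 4, against -0.21, 0.00 and -0.04 for wild-type tumours 1 to 3. Minus the median of the rest, the values were 0.00, 0.12, 0.15 and -0.01 in the deleted and -0.19, 0.01 and -0.04 in the wild-type tumours. The groups overlapped, and the difference was 0.14, with an SD of 0.08 (n = 4) among the deleted and of 0.10 (n = 3) among the wild-type tumours. With bounds of 12 and 24 Mb it was -0.0017. Of the 51 probes 37 had a higher mean in the deleted tumours (72.5%, rest of the chromosome 68.0%). At an unadjusted p below 0.05, 13 were higher (25.5%) and 1 was lower (1.96%), where the rest of the chromosome had 7.66% and 1.68%. The spread of the probe differences was wide, and 12 of the 13 lay between HIKESHI and TMEM126B. Just inside the bounds stood GRM5 at -0.02 and TC57444 at 0.06, and just outside them an unnamed probe at 13777021 at 0.00 and ODZ4 at -0.29.

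**Figure D3:**
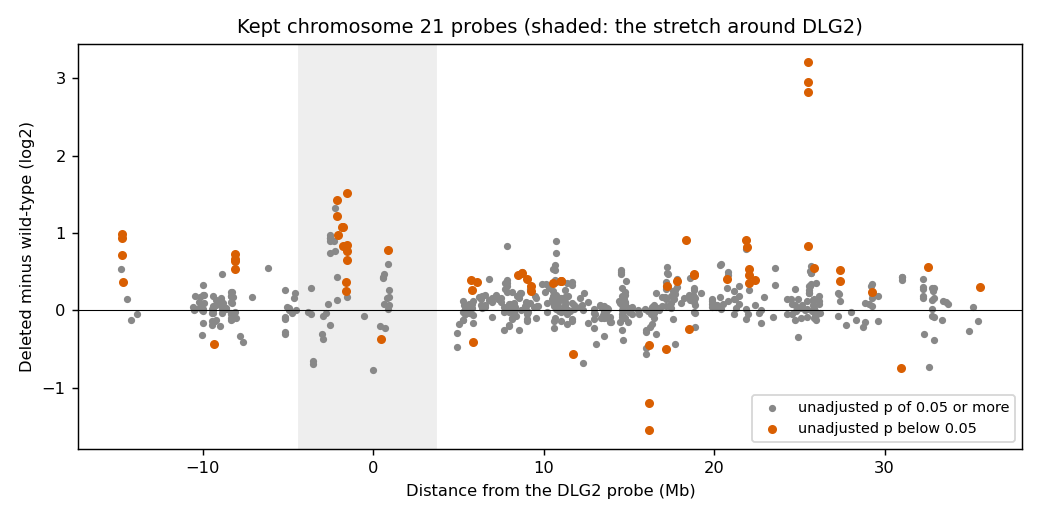
Each point is 1 kept probe of chromosome 21, with its distance from the DLG2 probe (Mb) against its difference in mean log2 intensity, deleted minus wild type. Orange points have an unadjusted limma p below 0.05, and 12 of the 14 in the shaded stretch lie to the left of DLG2, from 0.25 to 1.52, with RAB30 at 0.78 and the DLG2-described probe at -0.37 to its right.

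DLG2 itself was lower on average in the deleted tumours, with overlap. The log2 intensities were 10.38, 11.44, 10.51 and 10.84 for the deleted tumours in order, and 10.91, 12.03 and 11.75 for the wild-type tumours. Deleted tumour 2 stood above wild-type tumour 1, and the other 3 deleted tumours below every wild-type tumour. The group means lay -0.77 apart (SE 0.35, limma adjusted p = 0.711), and the exact permutation test over the 35 splits gave p = 0.114 (two-sided), where 0.0571 is the smallest it can give. Within slide 2 the mean of the 2 deleted tumours was 1.06 below the wild-type tumour, with 1 wild-type array. Without wild-type tumour 2 the difference was -0.54.

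The other probes of this region also had lower means in the deleted tumours. The DLG2-described probe was dimmer, at 6.90, 7.27, 7.17 and 7.10 in the deleted and 7.41, 7.34 and 7.69 in the wild-type tumours. Here the groups did not overlap, and the means differed by -0.37 (SE 0.13, limma adjusted p = 0.642). The probe in the deletion interval lay close to background in all tumours, between 6.54 and 6.83, and differed by -0.07. Between these probes, DN872910, without a symbol, differed by -0.20. All 4 kept probes between TMEM126B and CCDC90B were thus lower, with medians of -0.10 ± 0.13 (SD, n = 4) and 0.17 ± 0.19 (SD, n = 3). Scaled by the 75th percentile after the same background correction, 3 of the 4 turned higher and DLG2 stayed lower, and 1 of the 4, the probe in the deletion interval at 0.69, lay above the median of all probes, which had itself moved to 0.32. These few readings are of RNA and do not check the DNA status behind the labels. By position alone DLG2, the DLG2-described probe and DN872910 lie outside the interval given for the focal deletion, whose build is not given. Which of the probes the deletion of a given tumour spans was not examined here.

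Beside DLG2, the genes from HIKESHI to TMEM126B stood higher in the deleted tumours. All 16 kept probes from position 16208546 to position 16812555 had a higher mean there, 12 of them at an unadjusted p below 0.05 (over all kept probes 3.12%), and at 8 the groups did not overlap (over all kept probes 3.93%). Of the 16, 12 were well above background on all arrays, with 10 at that p and 5 without overlap. The other 4 were not, and a probe such as the one described as synaptotagmin-like 2, kept through deleted tumours alone, had to be higher in them. Their median deviation came to 0.14, 0.29, 0.13 and 0.06 for deleted tumours 1 to 4, against -1.0014, -0.50 and -0.05 for wild-type tumours 1 to 3. Wild-type tumour 1 had the lowest value of all at 12 of the 16 probes, while wild-type tumour 3 was just below the deleted tumours. Set against wild-type tumours 1 and 2 on average, the deleted tumours stood 0.90 higher, and against wild-type tumour 3 alone 0.21 higher. The run was picked out after its values had been seen, and the lowest limma adjusted p in it was 0.477, at PICALM.

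**Figure D4:**
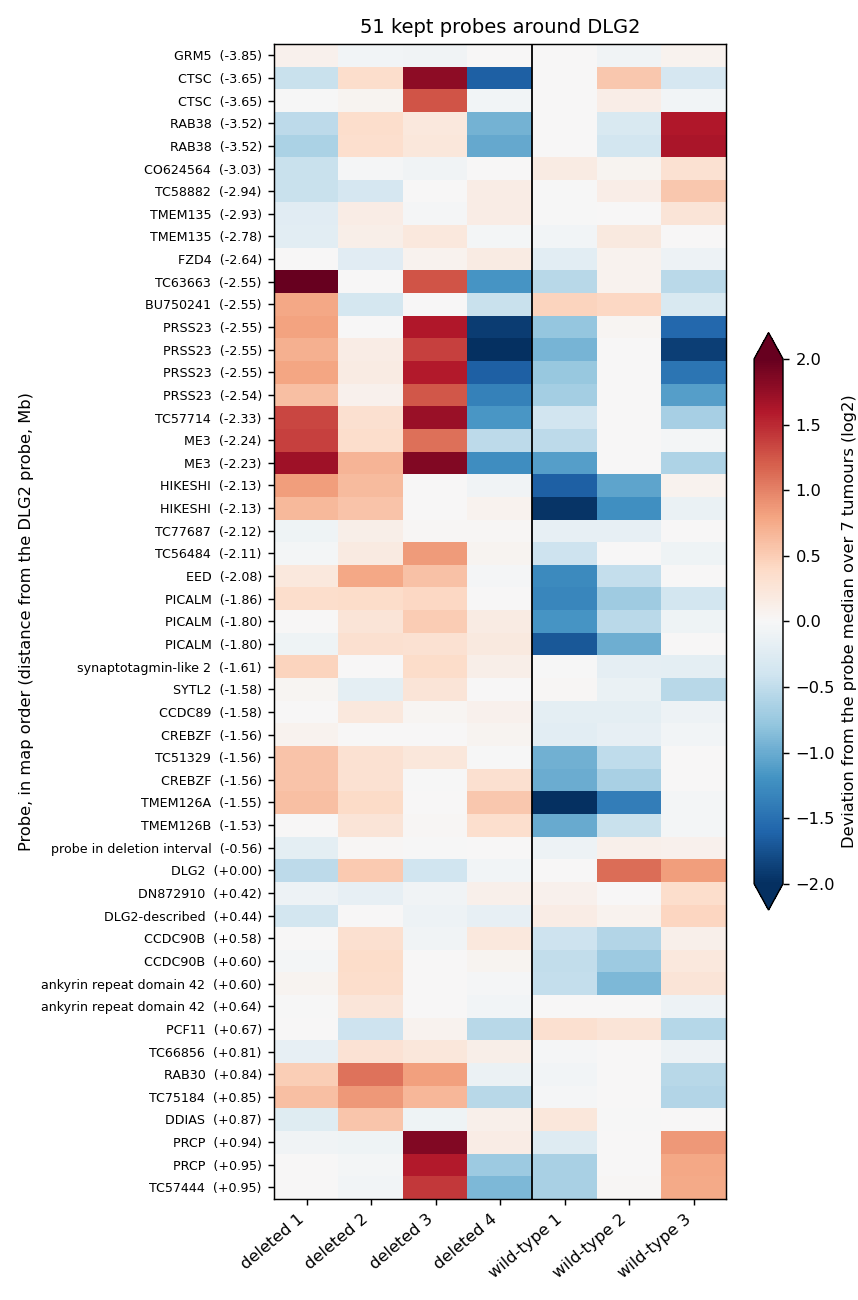
Each row is 1 of the 51 kept probes of the stretch in map order (distance from the DLG2 probe in Mb) and each column 1 tumour, with the deviation from the probe's 7-tumour median in log2 units (red above, blue below, colours end at 2). Over the rows from HIKESHI to TMEM126B, wild-type tumours 1 and 2 have medians of -1.0014 and -0.50 (blue). In the SYTL2 row wild-type tumour 1 stands just above the probe's median. The rows of PRSS23 and ME3 are red in deleted tumours 1 and 3 and blue in deleted tumour 4.

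TMEM126A, which codes for a mitochondrial membrane protein, had the widest difference of the stretch. Its log2 intensity was 11.02, 10.80, 10.42 and 10.95 in the deleted tumours and 8.43, 9.04 and 10.37 in the wild-type tumours, so the groups did not overlap, with deleted tumour 3 next to wild-type tumour 3. The means differed by 1.52 (SE 0.44, limma adjusted p = 0.552). TMEM126B, an assembly factor of respiratory complex I, read 7.82, 8.07, 7.85 and 8.15 against 6.81, 7.38 and 7.79, a difference of 0.65 (SE 0.23). HIKESHI, the carrier that brings HSP70 into the nucleus on heat stress, read 11.90, 11.81, 11.24 and 11.31 against 9.28, 10.01 and 11.12 at its brighter probe, a difference of 1.43 (SE 0.43). Its second probe differed by 1.22, with deleted tumours 3 and 4 below wild-type tumour 3.

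PICALM, a clathrin adaptor of endocytosis, was read by 3 probes, which differed by 1.08, 0.84 and 1.08 in map order. The brightest, the last of them, read 11.70, 12.12, 12.10 and 11.99 in the deleted and 10.10, 10.81 and 11.80 in the wild-type tumours (SE 0.37, limma adjusted p = 0.629), and wild-type tumour 3 stood above deleted tumour 1. At the first, which had the smallest p of the run, the groups did not overlap, with 9.60, 9.62, 9.66 and 9.25 against 7.94, 8.54 and 8.89 (SE 0.23, limma adjusted p = 0.477). EED, a core subunit of the Polycomb complex that methylates histone H3, read 9.82, 10.37, 10.19 and 9.58 against 8.32, 9.12 and 9.60, a difference of 0.97 (SE 0.33). Deleted tumour 4 and wild-type tumour 3 met there. CREBZF, a transcription factor of the basic leucine zipper kind, differed by 0.85 at its brighter probe, with wild-type tumour 3 level with deleted tumour 3, and by 0.18 at a probe near background. SYTL2, an effector of Rab27 in vesicle transport, differed by 0.25, at log2 levels of 7.71 to 8.52. There wild-type tumour 3 was the lowest, and wild-type tumours 1 and 2 lay within the range of the deleted tumours. CCDC89 lay between 6.41 and 6.82 and was well above background in 1 of 3 wild-type tumours, and its difference of 0.25 became 2.17 on the processed signal scaled by the 75th percentile. Another probe described as synaptotagmin-like 2 was well above background in 0 of 3 wild-type tumours, and no fold is given for it.

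**Figure D5:**
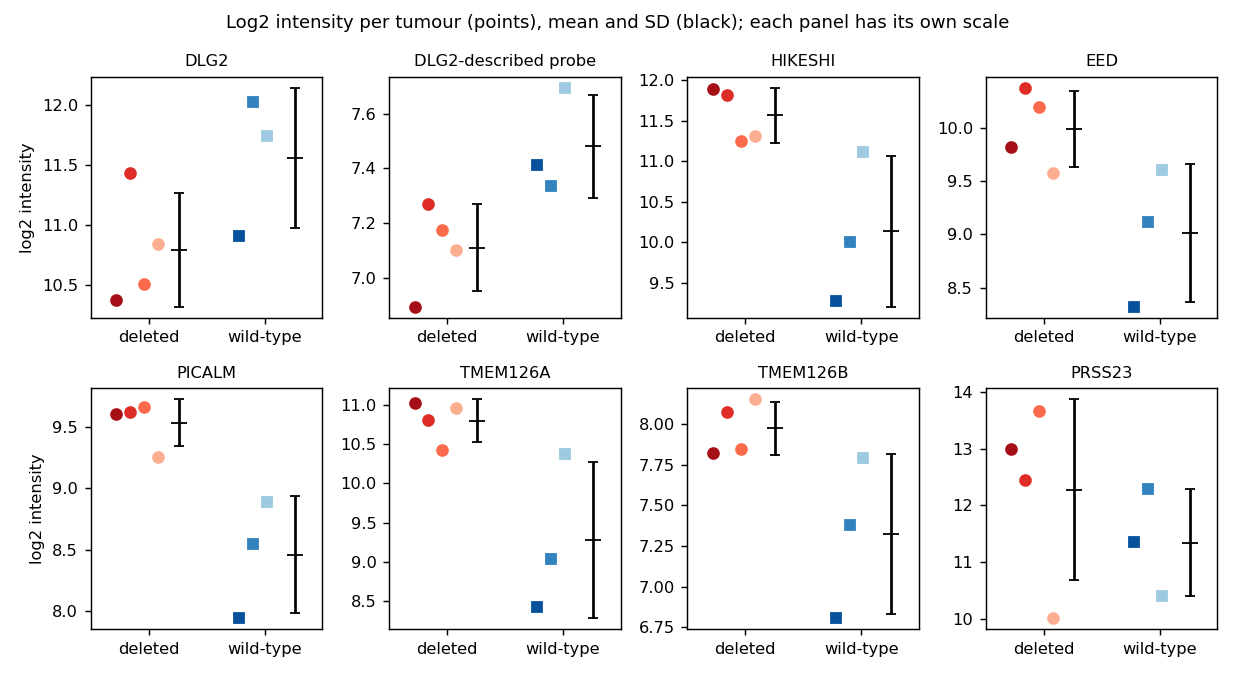
Points are the log2 intensities of single tumours (red circles 4 deleted, blue squares 3 wild type, darkest for tumour 1), with the mean and SD in black, for 8 probes on their own scales. DLG2 and PRSS23 overlap between groups, while PICALM and TMEM126A do not, with wild-type tumour 3 nearest to the deleted tumours.

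Further out, the genes from GRM5 to ME3 varied between tumours more than between groups. Of their 19 probes 10 were higher and 9 lower in the deleted tumours, and the median deviation was 1.098 in deleted tumour 3 and -0.94 in deleted tumour 4. PRSS23, a secreted serine protease, read 13.00, 12.44, 13.65 and 10.03 in the deleted and 11.35, 12.29 and 10.40 in the wild-type tumours at its brightest probe. Deleted tumour 4 was the lowest of all, and the difference was 0.93 (SE 0.89). Its 4 probes differed by 0.74 to 0.97. ME3, the mitochondrial malic enzyme that depends on NADP, was likewise high in deleted tumours 1 and 3 and low in deleted tumour 4 at its brighter probe, with 11.81, 10.79, 11.96 and 8.87 against 9.01, 10.11 and 9.49 and a difference of 1.32 (SE 0.76). In deleted tumour 4, where both genes were low, the adipocyte markers stood 3.65 above their medians. BU750241 lies opposite PRSS23 on the plus strand and differed by -0.19.

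CTSC, a lysosomal protease that activates enzymes of leukocyte granules, read 14.43 in deleted tumour 3 and 11.02 in deleted tumour 4, with the other tumours between 12.21 and 13.19 and a difference of -0.05 (SE 0.75). Its second, dimmer probe differed by 0.29, and there deleted tumour 3 was also the highest. The leukocyte markers were highest in deleted tumour 3 too, at 0.70. RAB38, which serves the transport of pigment proteins to melanosomes, was highest in wild-type tumour 3 at 9.97, with all others between 7.43 and 8.71 and a difference of -0.66 (SE 0.53). FZD4, a Wnt receptor, GRM5, a glutamate receptor, and TMEM135 stayed within 0.5 over the 7 tumours, at log2 levels of 6.50 to 7.45, and differed by 0.08, -0.02 and -0.07.

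Beyond DLG2, 11 of 12 kept probes from CCDC90B to PRCP had a higher mean in the deleted tumours, and the median difference of the 12 was 0.22. CCDC90B read 8.93, 9.25, 8.85 and 9.13 against 8.52, 8.34 and 9.03 at its first probe, a difference of 0.41 (SE 0.19), and its brighter probe differed by 0.43 (SE 0.23). As in the run from HIKESHI to TMEM126B, wild-type tumours 1 and 2 were the low ones, but here wild-type tumour 2 was the lowest. The 2 probes described as ANKRD42 differed by 0.47 and 0.08. RAB30, a small GTPase of the Golgi, was the 1 probe there with an unadjusted p below 0.05. It read 9.29, 9.89, 9.62 and 8.68 against 8.74, 8.80 and 8.24, a difference of 0.78 (SE 0.30, limma adjusted p = 0.665), with deleted tumour 4 below wild-type tumours 1 and 2. The probe described as PCF11, a factor of messenger RNA 3' end formation, was the 1 lower probe, at -0.23. DDIAS, an inhibitor of apoptosis after DNA damage, differed by 0.01 and PRCP, a peptidase that cleaves angiotensin, by 0.17 (SE 0.58), with deleted tumour 3 at 12.31 and the others between 10.00 and 11.50.

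A list of genes that flank DLG2 on the human map had 29 symbols among the chromosome 21 probes and 26 with a kept probe. Of these 26, 20 were higher and 6 lower in the deleted tumours, with a median difference of 0.21. Of the 26, 8 had an unadjusted p below 0.05 and 0 passed after adjustment. Over all 220 genes of the chromosome, 151 were higher and 69 lower, with a median of 0.10 and 28 at that p, and over 11119 genes of the array 5882 were higher, with a median of 0.01 and 844 at that p. The list was written with earlier results of these tumours known and shares most of its genes with the stretch.

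The probes from HIKESHI to TMEM126B were poorer in G and C than others, with a median of 36.7% against 43.3% on the rest of the chromosome and 45% over all kept probes. Over the 9412 kept probes of the array with at most 38.3% G and C, wild-type tumours 1 and 2 each had a median deviation of 0.00. The 183 such probes on the rest of chromosome 21 stood at -0.05 in wild-type tumour 1 and at -0.00 in wild-type tumour 2. The 12 such probes in the run stood at -1.097 and -0.53 in these tumours, with a difference between the groups of 0.74. The other 4 probes of the run, richer in G and C, stood at -0.30 and -0.17, with a difference of 0.30. The part of base composition in the run was not tested.

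Elsewhere on the chromosome, genes on both sides of the stretch were higher in the deleted tumours, with 0 past the adjusted threshold. SMCO4, a small membrane protein, had the smallest unadjusted p of a gene's brightest probe, and its 4 probes differed by 0.53 to 0.73. The brightest read 10.40, 10.48, 10.48 and 10.66 in the deleted and 9.65, 9.61 and 10.06 in the wild-type tumours, without overlap (SE 0.14, limma adjusted p = 0.434). ARHGAP42, at the start of the chromosome, read 12.17, 11.73, 11.75 and 11.95 against 10.76, 10.62 and 11.37, a difference of 0.98 (SE 0.21, limma adjusted p = 0.456). All 3 of its probes were without overlap. Beside it PGR, the progesterone receptor, differed by 0.53, with all wild-type tumours between 6.70 and 6.73.

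RRAS2, a GTPase close to RAS, read 10.34, 10.42, 10.43 and 10.49 against 9.79, 9.86 and 8.88, a difference of 0.91 (SE 0.24). LIPT2, described as a putative transferase of the lipoic acid pathway, differed by 0.46 (SE 0.10). SAA1, an acute-phase protein, had the widest range of all the named genes, 5.12. It read 9.85, 13.11, 12.01 and 11.54 in the deleted and 9.22, 8.84 and 7.98 in the wild-type tumours, a difference of 2.945 (SE 0.74, limma adjusted p = 0.5005). Deleted tumour 1 stood nearer to the wild-type tumours than to the other deleted ones. Neighbouring probes TC59834 and A_11_P055261 differed by 3.21 and 2.82 and may share near-identical family members, so the gene behind them is uncertain.

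Of the genes with a lower mean in the deleted tumours, LUZP2 had the smallest p. It read 8.54, 9.27, 8.74 and 8.64 against 9.11, 9.82 and 9.71, a difference of -0.75 (SE 0.24). CYB5R2, a cytochrome b5 reductase, differed by -1.21 (SE 0.49), and TMEM9B by -0.50 (SE 0.19) at its brightest probe, while its other 3 probes were higher by 0.28 to 0.36. AMPD3, an AMP deaminase, and KCNA4, a potassium channel, were low and differed by -0.24 and -0.26 without overlap. Scaling by the 75th percentile turned both of these higher, to 0.41 and 0.35, with all probes moved by 0.32.

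The genes with the widest ranges had different high and low tumours. HBD and HBE1, of the beta-globin cluster, followed each other, with HBD at 11.25, 13.74, 9.77 and 10.46 in the deleted and 10.27, 12.54 and 11.44 in the wild-type tumours and HBE1 from 8.97 to 12.82. Both were highest in deleted tumour 2 and second in wild-type tumour 2, and their differences were -0.11 and -0.05. A dimmer HBD probe had a difference of the opposite sign. IL18BP, which binds interleukin 18, was highest in deleted tumour 2 at 13.31, with the others between 9.59 and 10.87. DKK3, a secreted protein of the dickkopf family, read 7.92 in deleted tumour 4 and 7.73 in wild-type tumour 3 and between 10.40 and 11.31 in the other 5. CHRDL2, an inhibitor of bone morphogenetic proteins, ran from 6.99 to 11.27, and its value in deleted tumour 1 was left out as an outlier spot. SLC36A4, an amino acid transporter, ran from 10.83 to 13.86.

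The families of the chromosome can be described only through the members that were detected. Of 84 olfactory receptor symbols on the array 19 had a kept probe, and the others gave no reading. Of the 19, 7 were higher and 12 lower with a median difference of -0.02, and 0 had an unadjusted p below 0.05. At 1 of them all deleted tumours stood above all wild-type tumours (over all kept probes 3.93%). Of the TRIM genes 3 were kept, TRIM68, TRIM22 and TRIM3, with 1 higher and 2 lower. None of the listed matrix metalloprotease or caspase symbols was found among the chromosome 21 probes used here, and of the YAP1 and BIRC list PGR and ARHGAP42 were found.

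The differences were also read within slide 2 and within sessions set here from the image-reading times. On slide 2 the median of the stretch was 0.21 higher in the 2 deleted tumours than in wild-type tumour 2, and that of the run from HIKESHI to TMEM126B was 0.71 higher, with all 16 probes higher. The headers also give the time at which the scanner software read each image. These times were split at noon into a morning and an afternoon session, by the hour alone, and the headers name no session. Among the images of the morning session the run was 0.66 higher (3 deleted, 1 wild type) and among those of the afternoon session it was 0.67 higher (1 deleted, 2 wild type), with 15 of 16 probes higher in the latter. Leaving out wild-type tumour 1 lowered its difference to 0.43 and the single differences of HIKESHI from 1.43 to 1.001, PICALM from 1.08 to 0.67, EED from 0.97 to 0.63, CREBZF from 0.85 to 0.62, TMEM126A from 1.52 to 1.09 and TMEM126B from 0.65 to 0.39. It left 6 of the 16 probes at an unadjusted p below 0.05, and counting wild-type tumours 1 and 2 as 1 tumour left 7 of the 16. Over all kept probes, 1009 were higher at that p with all 7 tumours, 525 without wild-type tumour 1 and 543 with the pair as 1. With age as a covariate the 16 probes of the run were still higher, by a median of 0.38 against 0.80 without it. Of these 1 kept such a p, while in the stretch 2 higher and 2 lower probes did, and over all kept probes 855 higher and 1108 lower. The deleted group was younger, so age and DLG2 status can only partly be told apart with 7 dogs. In a fit with an interaction of DLG2 status and sex label, 0 of the 586 probes had an adjusted p below 0.1 and 56 had an unadjusted p below 0.05 (9.56%, over all kept probes 7.97%).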

How the data were processed

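RNA of 7 canine osteosarcomas (4 DLG2 deleted, 3 wild type) was measured on 1-dye Agilent arrays, 1 per tumour. What was deposited is scanner output of Agilent Feature Extraction 10.7.3.1, with linear spot intensity and the local background beside it. The authors then normalized by a multi-array average method and corrected for batch, and values from that step were not used here. Background (the local median) was taken off the mean signal by normexp (saddle, offset 50, limma 3.58.1, R 4.3.3), quantile-normalized and put on the log2 scale. Quantile normalization sets the arrays to 1 distribution, so a shift of most genes cannot be seen. Control spots were dropped, as were 144 outlier-marked values, and spots of a probe were averaged.

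Probe positions were those of the files (canFam2). The place of each probe within its gene (exon, intron, UTR) was not examined. Symbols were those of the files, and 33 kept chromosome 21 probes were named through a RefSeq table (UU_Cfam_GSD_1.0). Groups were compared by limma over all 32309 kept probes, two-sided, with no covariate. Calls needed an unadjusted p below 0.05 and a Benjamini-Hochberg adjusted p below 0.1. Single probes also had an exact permutation test over 35 splits (scipy 1.17.1). The computation was tested on simulated data. The number of arrays limits the precision. The labels give the tumours as separate dogs, and the p-values measure the spread between dogs only if that holds. Wild-type tumours 1 and 2 were more alike than any other pair of arrays (r = 0.987). If they are not independent, the spread of the wild-type group is understated.

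The members, the bounds of the stretch and the lists were chosen with earlier results of these data known. The genes named were all with a symbol in the stretch, the kept probe in the deletion interval, the 5 outside it with the smallest p in each direction, the 10 with the largest range and the kept genes of 4 lists, each by its brightest probe. Other probes, and the run from HIKESHI to TMEM126B, were named after their values were seen. Alternatives were other background corrections, scalings, filters, tests, covariates, batch terms, bounds and windows, 1 probe per gene, wild-type tumours 1 and 2 as 1, and each tumour left out.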

Additional observations from a re-analysis of the deposited data

Results flagged for a closer look

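In groups of 4, the gap of the most distant tumour to its nearest neighbour was compared with the whole range of the group, and chance alone passes the limit of Dixon's test for 4 values in about 1 of 20 groups. Of 49 groups of deleted tumours examined, 3 passed, where 2.45 would be passed at that rate. The probe in the deletion interval, A_11_P068511, was lower in deleted tumour 1 than in the others, with a gap of 0.853 of the range, at a level close to background. In the window at 10 to 15 Mb deleted tumour 2 stood alone, with a gap of 1.0 of the range, because the median deviation of the other 3 was 0. In the window at 50 to 55 Mb deleted tumour 4 was higher than the others, with a gap of 0.863.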

How the results depend on the processing

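No paired analysis was possible because the replicate numbers come from the order of the samples and pair nothing. The difference of the DLG2 probe was negative under all 22 alternatives, from -1.10 to -0.54, and never past the threshold. Alternatives that changed only the filter, the centring or the test left it at -0.77 and could not change its sign. Of 832 values of the 38 named probes under alternatives, 771 kept their direction and 0 passed the threshold. The same settings left these differences unchanged too, so part of the 771 was fixed in advance.

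The 64 chromosome 21 probes at an unadjusted p below 0.05 became 28 with 75th-percentile scaling after normexp, 25 with 1 probe per gene (219 tested), 105 with array weights, 37 with slide as a block and 39 with wild-type tumours 1 and 2 as 1. With each tumour left out in turn there were 35 to 83, with 39 without wild-type tumour 1 and 35 without wild-type tumour 2. The 14 of the stretch became 8 with 1 probe per gene (20 tested) and 9 with the image-reading session as a term. They became 4 with age as a covariate and 9 with wild-type tumours 1 and 2 as 1. With a tumour left out there were 7 to 21, of which 9 without deleted tumour 2, 7 without wild-type tumour 1 and 8 without wild-type tumour 2. Over all kept probes 1009 were higher and 1346 lower in the main setting. With array weights there were 1778 and 2212, and with 75th-percentile scaling after normexp 628 and 460. Counting wild-type tumours 1 and 2 as 1 gave 543 and 865. Leaving out a wild-type tumour gave 525 and 901 (tumour 1) and 632 and 927 (tumour 2). Leaving out a deleted tumour gave 1033 and 1520 (tumour 2) and 1400 and 1594 (tumour 4). With the session there were 1008 and 1404, and with age 855 and 1108. The count over all genes is not given for 1 probe per gene.

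The stretch minus the rest, 0.14, was 0.33 and 0.27 on the processed signal (75th percentile and quantile), 0.0215 with 75th-percentile scaling after normexp, 0.0357 without a filter, 0.26 with means and -0.0017 at 12 to 24 Mb, and 0.11 to 0.22 with a tumour left out. The 1 window that kept the groups apart became 5 with 75th-percentile scaling after normexp, 0 with a filter of 1 array, 0 without a filter and 2 with 1 probe per gene. It became 3 with windows of 2.5 Mb and 0 with windows of 10 Mb. With wild-type tumours 1 and 2 as 1 there were 3, and with a tumour left out 1 to 5 (1 without deleted tumour 2, otherwise 2 to 5). Groups of fewer tumours stay apart more easily, so these last counts cannot be set against the 1. The share over all chromosomes is given for the main setting only. The causes were not tested.

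Single differences changed sign as follows. With age as a covariate PRCP was -0.78, FZD4 -0.0649, HBD 0.66 and HBE1 0.74. With sex label as a covariate PRCP was -0.0224, HBD 0.0448 and HBE1 0.10. With array weights CTSC was 0.16, DDIAS -0.0206, CHRDL2 1.04 and DKK3 -0.49. With 75th-percentile scaling after normexp, which moved all probes by 0.32, PRCP was -0.13, TMEM135 0.45, GRM5 0.74, A_11_P068511 0.69, AMPD3 0.41, KCNA4 0.35, DKK3 -0.19 and A_11_P0000029161 0.12. On the processed signal CTSC was 0.0157 and DDIAS -0.14 (75th percentile), and DDIAS -0.0351 (quantile). With the image-reading session as a term DDIAS was -0.0586, GRM5 0.0351, CHRDL2 1.24 and DKK3 -0.0409. With slide as a block CTSC was 0.53, RAB38 0.57, TMEM135 0.0573, FZD4 -0.16, GRM5 0.0094, CHRDL2 2.34 and DKK3 -0.25. Only slide 2 held both groups, so these are differences of deleted tumours 2 and 3 from wild-type tumour 2 alone. With wild-type tumours 1 and 2 as 1 CTSC was 0.0477 and PRCP -0.0147. With a tumour left out CTSC ran from -0.64 to 0.50, PRCP from -0.29 to 0.53, DDIAS from -0.15 to 0.12, TMEM135 from -0.12 to 0.0107, GRM5 from -0.056 to 0.0195, CHRDL2 from -0.96 to 1.03, HBD from -0.92 to 0.45, HBE1 from -0.85 to 0.48, DKK3 from -1.10 to 0.75 and SLC36A4 from -0.65 to 0.29.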
